A study of Mus musculus with 6 samples.

Results

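The 10 genes described here make or remodel phosphatidylcholine, the main phospholipid of membranes and the lipid that Mdr2 (the gene Abcb4) moves from hepatocytes into bile. They were taken by name from a table of 58601 rows of liver RNA, and all 10 were found: Chka, Chkb, Pcyt1a, Chpt1 and Cept1 of the choline route, Etnk1, Etnk2 and Pcyt2 of the ethanolamine route, Pemt, and the acyl exchange enzyme Lpcat3. RNA was sequenced from the liver of Mdr2 knockout mice in 6 libraries, 3 from animals treated with lycorine, a plant alkaloid of the Amaryllidaceae family, and 3 from animals treated with vehicle. The question of the study was how this drug influences intrahepatic cholestasis. Animals of both groups were 8 weeks old at the start, were treated for 2 weeks, and carried the Mdr2 deletion, which the labels write as Mdr2-/- and as Mdr2-HKO. No wild-type liver was analysed here, and the sources used here give no dose, route or sex. The labels number the libraries within each group but do not say that each is a separate mouse, so p-values measure library-to-library spread, part of which may be technical.

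In the Kennedy pathway, choline is phosphorylated, activated with CTP to CDP-choline and joined to diacylglycerol. Ethanolamine takes a parallel course to phosphatidylethanolamine. In liver, PEMT then methylates phosphatidylethanolamine to phosphatidylcholine, a route that is prominent in hepatocytes and little used elsewhere. Phosphatidylcholine in bile forms mixed micelles with bile salts and shields the bile ducts from them, which is why loss of Mdr2 injures the ducts.

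Abcb4 itself was at 8.96, 8.32 and 32.2 TPM in lycorine and 43.5, 10.8 and 12.3 TPM in vehicle. TPM are transcript abundances corrected for transcript length and scaled to the same total in each library, so levels of different genes can be compared. A value for the whole gene does not show which part of the transcript remains, so it does not check the genotype. All 10 hepatocyte markers were present, and their summed level was 43579 to 62513 TPM in lycorine and 20501 to 56291 TPM in vehicle. The lowest sum, 20501 TPM, belonged to vehicle 3. In that library protein-coding nuclear genes held 51.5% of TPM, against 69.5% to 78.1% in lycorine and 63.7% and 71.5% in the other vehicle libraries. Markers of Kupffer cells, the macrophages that reside in liver, had a log2 fold change below 0 in 6 of 6 cases. Of all tested rows 69.9% were above 0. Sums of the Kupffer cell markers were 21.02 to 74.2 TPM in lycorine and 96.2 to 164.6 TPM in vehicle. Tested markers were also below 0 in 4 of 4 cases for sinusoidal endothelial cells, 2 of 2 for neutrophils, 3 of 5 for stellate cells and 2 of 3 for T and NK cells. They were above 0 in 8 of 10 cases for hepatocytes, 5 of 6 for cholangiocytes and 1 of 1 for B cells. The part of these differences in makeup in the results below was not tested. In bulk liver, fewer cells of a type and less RNA per cell cannot be told apart.

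Promoter sequences are shown for the 3 genes whose libraries did not overlap between groups, Pemt, Etnk2 and Cept1, and for Chka, the gene with a fold change below 0. Each run is the 250 bases before an annotated start site, written 5′ to 3′ along the gene, from RefSeq on GRCm38.p6. Capitals mark the GC box GGGCGG, on either strand, where overlapping matches run together. The windows are chr11:60037006-60037255 on the minus strand for Pemt, chr1:133363322-133363571 on the plus strand for Etnk2, chr3:106547803-106548052 on the minus strand for Cept1 and chr19:3851523-3851772 on the plus strand for Chka.
Pemt: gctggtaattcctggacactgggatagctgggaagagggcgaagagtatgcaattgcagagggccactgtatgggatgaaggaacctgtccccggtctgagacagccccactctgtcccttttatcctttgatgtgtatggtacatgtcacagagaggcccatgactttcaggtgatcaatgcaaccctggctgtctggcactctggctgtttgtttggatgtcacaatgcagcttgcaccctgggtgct
Etnk2: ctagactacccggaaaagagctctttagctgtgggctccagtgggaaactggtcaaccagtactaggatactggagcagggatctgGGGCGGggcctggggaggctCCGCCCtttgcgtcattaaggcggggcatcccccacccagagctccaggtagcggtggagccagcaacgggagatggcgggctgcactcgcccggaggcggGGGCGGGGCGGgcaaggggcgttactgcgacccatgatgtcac
Cept1: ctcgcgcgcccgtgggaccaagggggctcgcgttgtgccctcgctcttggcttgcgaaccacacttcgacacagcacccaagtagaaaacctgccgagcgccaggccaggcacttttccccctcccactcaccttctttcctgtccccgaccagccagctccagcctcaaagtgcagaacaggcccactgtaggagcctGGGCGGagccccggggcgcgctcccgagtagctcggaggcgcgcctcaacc
Chka: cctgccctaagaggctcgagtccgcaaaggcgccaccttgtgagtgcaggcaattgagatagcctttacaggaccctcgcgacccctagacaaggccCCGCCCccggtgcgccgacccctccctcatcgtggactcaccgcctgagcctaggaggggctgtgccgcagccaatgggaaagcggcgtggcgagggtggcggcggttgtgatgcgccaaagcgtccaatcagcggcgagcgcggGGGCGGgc
A GENCODE M21 transcript starts at the base after each of these 4 windows. The Pemt window had no GC box and 52.8% G and C, close to the median of 52.4% over all 32851 windows of this length. The windows of Etnk2, Cept1 and Chka held 65.2%, 66.8% and 68% G and C, all above that median. The reference table held start sites for 9 of the 10 genes, all but Pcyt2, in 14 windows. A GC box lay in 10 of these 14 windows, from 8 of the 9 genes, and in 32.7% of all windows. Some windows of Pcyt1a and of Cept1 overlap, so the same GC boxes were counted more than once among the 10. Other start sites of a gene can differ, and a second Pemt window held 44.8% G and C and the other Cept1 windows held 64% and 27.6%. No member window held the AP-1 motif TGANTCA, the CRE motif TGACGTCA, the E-box CACGTG or the motif TGATGNAA, searched on both strands and present in 6.75%, 1.55%, 6.02% and 3.45% of all windows. A match is a description of these letters and not evidence of binding.

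Pemt, on chromosome 11 from 59970614 to 60046489 (minus strand, GRCm38), had the highest level of the 10. It was at 398.4, 437.5 and 450.9 TPM in lycorine, against 282.8, 253.6 and 237.4 TPM in vehicle. Each lycorine library lay above each vehicle library, and the gap between the groups was wider than the spread within either. The means were 428.9 ± 27.3 TPM in lycorine and 257.9 ± 23.0 TPM in vehicle (SD, n = 3 each), a ratio of 1.66. On the scale of log2(TPM + 1), the log2 fold change was 0.73 (SE 0.25, 95% interval 0.15 to 1.32, not adjusted for the number of rows tested). Over all 13854 tested rows, those averaging 1 TPM or more, it did not pass, with an adjusted p of 0.832 in limma (Benjamini-Hochberg). The exact two-sided permutation p was 0.1, the smallest that 3 against 3 libraries can give. The median log2 fold change of all tested rows was 0.22, so Pemt lay 0.51 above it.

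Across the whole table, limma called 0 of 13854 rows (0%) at an adjusted p under 0.05, and 476 rows (3.44%) had an unadjusted p under 0.05. Among the 10 genes, limma called 0 after adjustment, and 1, Pemt, had an unadjusted p under 0.05. Their adjusted p values ran from 0.832 to 0.983. The log2 fold change was above 0 in 9 of 10 genes, against 69.9% of all tested rows, and above the median of all rows, where 50% of them lie by construction, in 4 of 10. The median over the 10 genes was 0.18, against 0.22 over all tested rows and 0.32 over rows averaging 5 TPM or more. Of the 10 genes 2 averaged less than 5 TPM. Groups did not overlap in 3 of 10 genes, all of them higher in lycorine, where 9.6% of tested rows were higher without overlap and 1.01% lower.

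**Figure D1:**
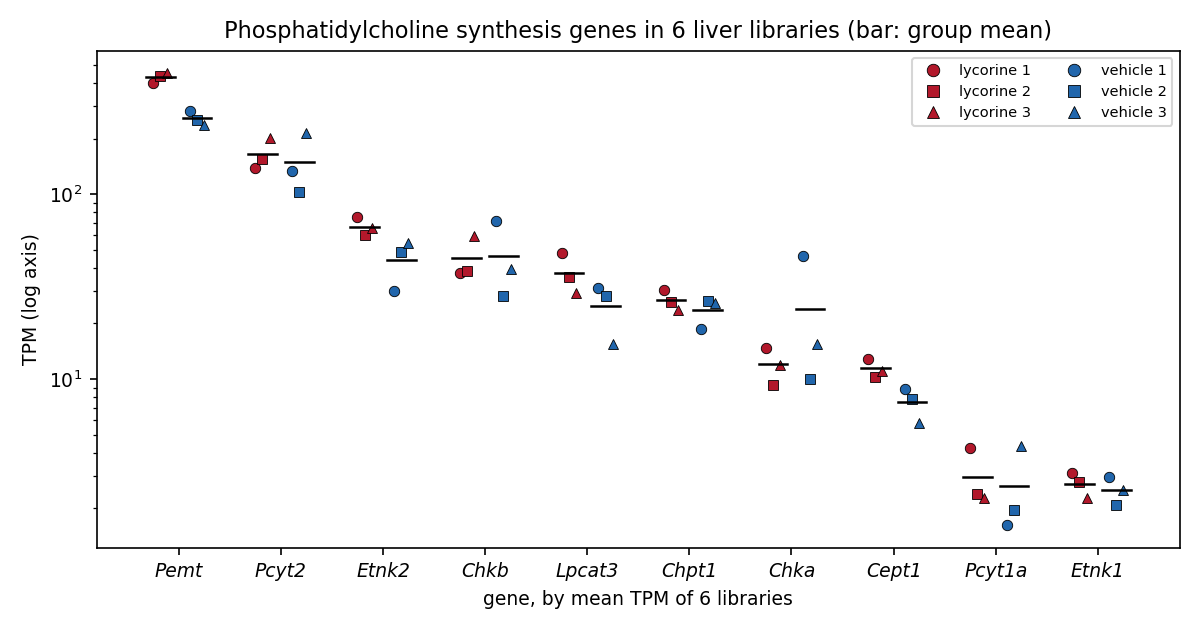
TPM of the 10 genes (log axis) in each lycorine library (red, left of each pair) and vehicle library (blue, right), with the mean of each group as a bar and the library number as the marker shape. Pemt stands highest, with lycorine libraries at 398.4 to 450.9 TPM and vehicle libraries at 237.4 to 282.8 TPM, while Chka shows vehicle 1 apart at 46.5 TPM.

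The 10 genes covered a wide range of levels. Pcyt2 followed Pemt with a mean of 157.3 TPM over the 6 libraries, and then Etnk2 with 55.6 TPM. Pemt was above Pcyt2, and Pcyt2 above Etnk2, in 6 of 6 libraries, and these ranges did not overlap. Below them came Chkb at 45.7, Lpcat3 at 31.3, Chpt1 at 25.2, Chka at 18.01 and Cept1 at 9.45 TPM. Each of these neighbours in the order had overlapping ranges. Cept1 was above Pcyt1a in 6 of 6 libraries, and Pcyt1a (2.81 TPM) and Etnk1 (2.62 TPM) were not separated, with Pcyt1a higher in 3 of 6. Pemt exceeded 97.6% of tested rows in mean TPM, and Pcyt1a exceeded 32.4%.

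The choline kinases start the choline route and can also phosphorylate ethanolamine. Chka, on chromosome 19 from 3851773 to 3894369, was at 14.8, 9.34 and 11.97 TPM in lycorine and 46.5, 9.96 and 15.5 TPM in vehicle. Vehicle 1 was far above the other 5 libraries, which overlapped. The means were 12.04 ± 2.73 TPM in lycorine and 24.0 ± 19.7 TPM in vehicle (SD, n = 3 each). The log2 difference between groups was -0.67 (SE 0.54, limma adjusted p = 0.832), and -0.064 without vehicle 1. Without vehicle 2 it was -1.12. Vehicle 1 also had the highest summed level of the neutrophil markers, 24.3 TPM, against 1.32 to 2.76 TPM in lycorine and 5.09 and 7.18 TPM in the other vehicle libraries. Sums of sinusoidal endothelial (128.3 TPM) and cholangiocyte markers (222.6 TPM) were highest in vehicle 1 too. So were those of T and NK cells (9.32 TPM) and B cells (3.32 TPM). Those of hepatocytes, Kupffer cells and stellate cells were highest in other libraries. The next highest endothelial sum was 117.5 TPM in vehicle 3, where Chka was at 15.5 TPM. For cholangiocytes it was 221.5 TPM in lycorine 1, where Chka was at 14.8 TPM. The part of any of these cells in the Chka level was not tested. Of the 4 neutrophil markers 2 averaged 1 TPM or more, and Ly6g was at 0 in every library.

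Chkb, on chromosome 15 from 89426360 to 89429908, was at 37.7, 38.6 and 59.1 TPM in lycorine and 71.5, 28.0 and 39.2 TPM in vehicle. The highest and the lowest library were both vehicle, and limma gave a log2 fold change of 0.040 (SE 0.41, adjusted p = 0.983). That sign turned in 7 of 17 other settings, and the value was -0.26 without vehicle 2 and 0.40 without vehicle 1. Of the 3061 exonic bases of Chkb, 1552 (50.7%) also belong to Gm44502, which RefSeq lists as the Chkb-Cpt1b joint transcript on the same strand. How reads were divided between them is not given in the sources used here, so the Chkb level is uncertain. Gm44502 was at 3.33, 5.42 and 7.96 TPM in lycorine and 13.8, 2.88 and 2.33 TPM in vehicle, with vehicle 1 again highest.

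Pcyt1a makes CDP-choline, the step that usually sets the pace of the choline route. On chromosome 16 from 32430921 to 32475070, it was at 4.25, 2.38 and 2.28 TPM in lycorine and 1.62, 1.97 and 4.37 TPM in vehicle. The groups overlapped over nearly their whole range. With limma the log2 fold change came to 0.16 (SE 0.40, adjusted p = 0.930), with -0.060 without lycorine 1 and 0.47 without vehicle 3. On the other strand 567 of its 7412 exonic bases also belong to Slc51a. Pcyt1b, a second gene for this enzyme, was at 0.03 to 0.20 TPM over the 6 libraries and was not tested.

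Chpt1 and Cept1 carry out the last step, joining the activated head group to diacylglycerol. Chpt1 acts on CDP-choline, and Cept1 accepts CDP-choline and CDP-ethanolamine. Cept1, on chromosome 3 from 106502260 to 106547802, was at 12.9, 10.3 and 11.0 TPM in lycorine and 8.82, 7.80 and 5.80 TPM in vehicle. Each lycorine library lay above each vehicle library. Limma put the log2 fold change at 0.56 (SE 0.28, 95% interval -0.09 to 1.22), with a limma adjusted p of 0.832 and an exact permutation p of 0.1. On the opposite strand 771 of its 3116 exonic bases (24.7%) belong to Dennd2d, at 1.46 to 3.38 TPM, whose reads cannot be told apart where strand was not used in counting. Chpt1, on chromosome 10 from 88452745 to 88504073, was at 30.3, 26.2 and 23.7 TPM in lycorine and 18.7, 26.5 and 25.8 TPM in vehicle. The groups overlapped, with a log2 fold change of 0.18 (SE 0.28, limma adjusted p = 0.888), which was 0.022 without vehicle 1.

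The ethanolamine kinases feed the route to phosphatidylethanolamine, the substrate of PEMT. Etnk2, on chromosome 1 from 133363572 to 133380336, was at 75.2, 60.0 and 65.3 TPM in lycorine and 29.8, 48.5 and 54.6 TPM in vehicle. The groups did not overlap, with 60.0 TPM in lycorine 2 next to 54.6 TPM in vehicle 3. The means were 66.8 ± 7.72 TPM in lycorine and 44.3 ± 12.9 TPM in vehicle (SD, n = 3 each). The log2 fold change was 0.62 (SE 0.32, 95% interval -0.13 to 1.37), with a limma adjusted p of 0.832 and an exact permutation p of 0.1. Without vehicle 1, the lowest library, it was 0.36. Etnk1, on chromosome 6 from 143167221 to 143232307, was at 3.09, 2.79 and 2.27 TPM in lycorine and 2.97, 2.08 and 2.51 TPM in vehicle. It differed by less than the spread within groups, with a log2 fold change of 0.080 (SE 0.30, limma adjusted p = 0.952).

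Pcyt2 makes CDP-ethanolamine, the counterpart of Pcyt1a. On chromosome 11 from 120610087 to 120617936, it was at 138.2, 154.3 and 200.9 TPM in lycorine and 133.6, 102.8 and 214.0 TPM in vehicle. Library 3 was the highest of each group, and the groups overlapped. In limma it had a log2 fold change of 0.18 (SE 0.35, adjusted p = 0.911), with 0.47 without vehicle 3 and -0.058 without vehicle 2.

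Lpcat3 puts polyunsaturated chains back onto lysophosphatidylcholine, and its gene is a known target of the liver X receptors. On chromosome 6 from 124663027 to 124704418, it was at 48.2, 35.5 and 29.1 TPM in lycorine and 31.2, 28.2 and 15.6 TPM in vehicle. Lycorine 3, at 29.1 TPM, lay below vehicle 1, at 31.2 TPM, and the other libraries were apart. Limma gave it a log2 fold change of 0.60 (SE 0.37, adjusted p = 0.832), and 0.30 without vehicle 3. Of its 3268 exonic bases 334 (10.2%) also belong to Emg1 on the opposite strand, at a mean of 40.3 TPM. The gene of the liver X receptor alpha, Nr1h3, was at 82.1, 108.6 and 114.3 TPM in lycorine and 84.3, 63.4 and 84.3 TPM in vehicle (limma log2 fold change 0.39, SE 0.29, adjusted p = 0.832).

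**Figure D2:**
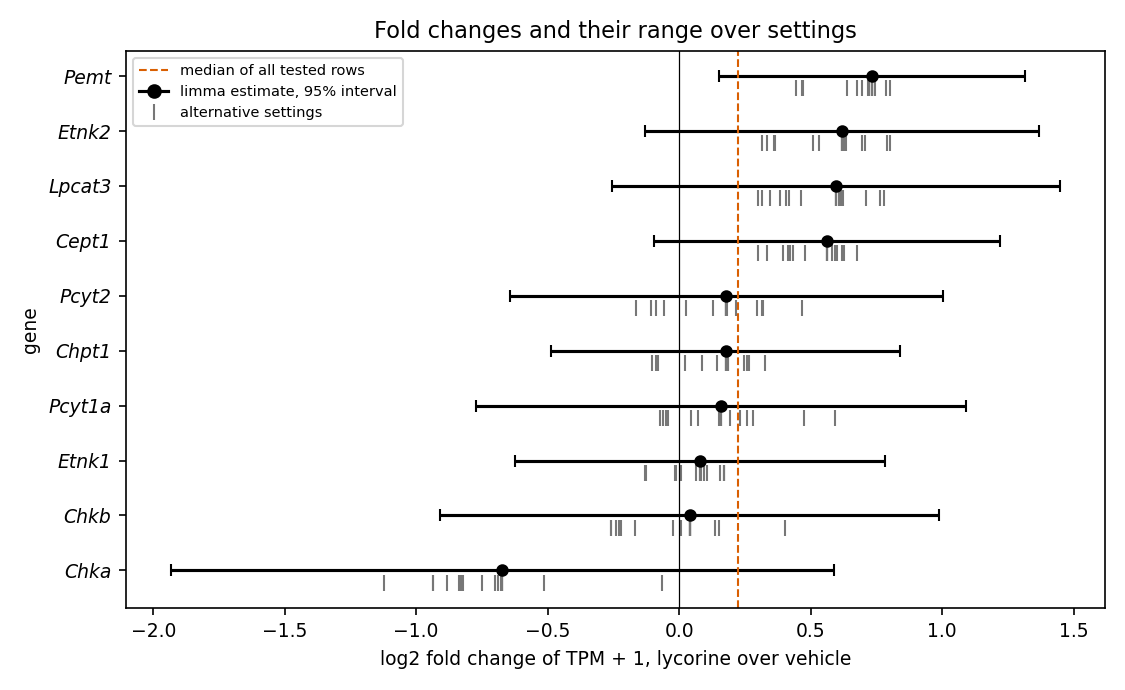
Log2 fold change of TPM + 1 (lycorine over vehicle) of each gene with its 95% interval from limma, grey ticks for the other settings and a dashed line at the median of all tested rows, 0.22. The interval of Pemt, 0.15 to 1.32, lies above 0, and the intervals of the other 9 genes include 0.

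The differences depended on how the libraries were scaled to each other. With TPM as deposited, 69.9% of tested rows were higher in lycorine. Median-of-ratios scaling, which sets the typical gene equal between libraries, brought the median over all rows to a log2 fold change of -0.0022, from 0.22. After it Pemt was at 314.1, 417.6 and 443.5 in lycorine and 235.0, 351.5 and 278.4 in vehicle, in scaled TPM. Lycorine 1 then lay below vehicle 2, and the log2 fold change was 0.44 (limma adjusted p = 0.998). Etnk2, Cept1 and Lpcat3 had log2 fold changes of 0.33, 0.30 and 0.32 after this scaling, and their groups overlapped. Scaled Etnk2 was at 59.3, 57.2 and 64.3 in lycorine and 24.8, 67.2 and 64.0 in vehicle. Only vehicle 1 was low, and vehicle 2 was the highest library. Chka was at 11.7, 8.91 and 11.8 in lycorine and 38.7, 13.8 and 18.1 in vehicle on this scale, so that the 3 lycorine libraries were the lowest of the 6. The log2 fold change then was -0.94 (limma adjusted p = 0.998). After this scaling 0 of 10 genes were higher without overlap, against 3.31% of tested rows, and 1 of 10 lower, against 3.52%.

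**Figure D3:**
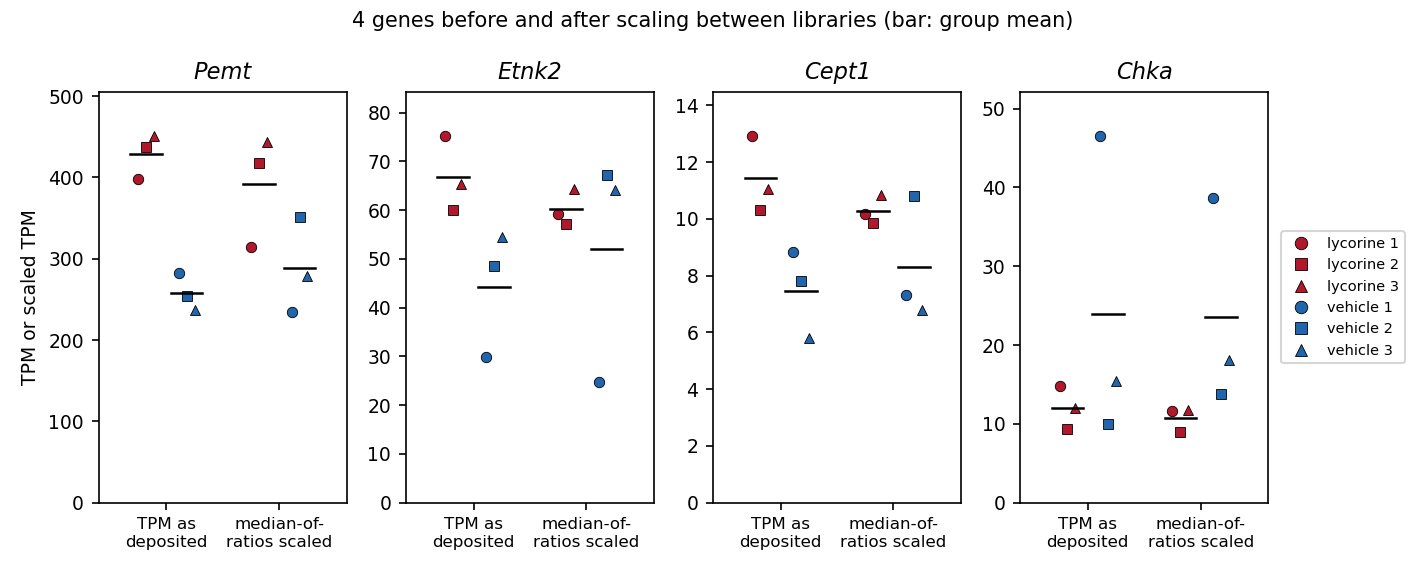
Pemt, Etnk2, Cept1 and Chka in each library as deposited (left of each panel, TPM) and after median-of-ratios scaling (right, scaled TPM), with lycorine in red, vehicle in blue and group means as bars. Pemt, Etnk2 and Cept1 are apart as deposited and overlap after scaling, and Chka overlaps as deposited and is apart after scaling.

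Shares and ratios within a library do not move with the scaling between libraries. Pemt made up 52.2%, 56.3% and 52.6% of the summed TPM of the 10 genes in lycorine and 45.1%, 49.8% and 38.6% in vehicle. The groups did not overlap in this share, which was computed after the values had been seen and was not tested. Pcyt2 made up 18.1%, 19.9% and 23.5% in lycorine and 21.3%, 20.2% and 34.8% in vehicle, so its share was highest in vehicle 3, where that of Pemt was lowest.

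A set of 5 ratios between enzymes was compared over libraries, and 0 of 5 could pass 0.05, since 0.1 is the smallest exact permutation p. Chka over Chkb was 0.39, 0.24 and 0.20 in lycorine and 0.65, 0.36 and 0.39 in vehicle, a log2 difference of -0.75 (exact permutation p = 0.2, 0.625 adjusted over the 5 ratios). The highest lycorine ratio, in lycorine 1, lay above vehicle 2 and beside vehicle 3. Pemt over Pcyt1a, the methylation route against the pacing step of the choline route, was 93.7, 183.8 and 197.8 in lycorine and 174.6, 128.7 and 54.3 in vehicle. Its log2 difference was 0.49 (exact permutation p = 0.5, adjusted 0.625), and 0.0055 without vehicle 3. Chpt1 over Cept1 was 2.34, 2.54 and 2.14 in lycorine and 2.12, 3.40 and 4.45 in vehicle, with a log2 difference of -0.44 (exact permutation p = 0.4, adjusted 0.625). That difference was -0.20 without vehicle 3 and -0.73 without vehicle 1. Etnk1 over Etnk2 was 0.041, 0.047 and 0.035 in lycorine and 0.0996, 0.043 and 0.046 in vehicle, and vehicle 1 stood apart (log2 difference -0.52, exact permutation p = 0.3, adjusted 0.625). Without vehicle 1 that difference was -0.13. Pcyt2 over Pcyt1a was 32.5, 64.8 and 88.1 in lycorine and 82.5, 52.2 and 49.0 in vehicle, with a log2 difference of -0.061 (exact permutation p = 1, adjusted 1).

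**Figure D4:**
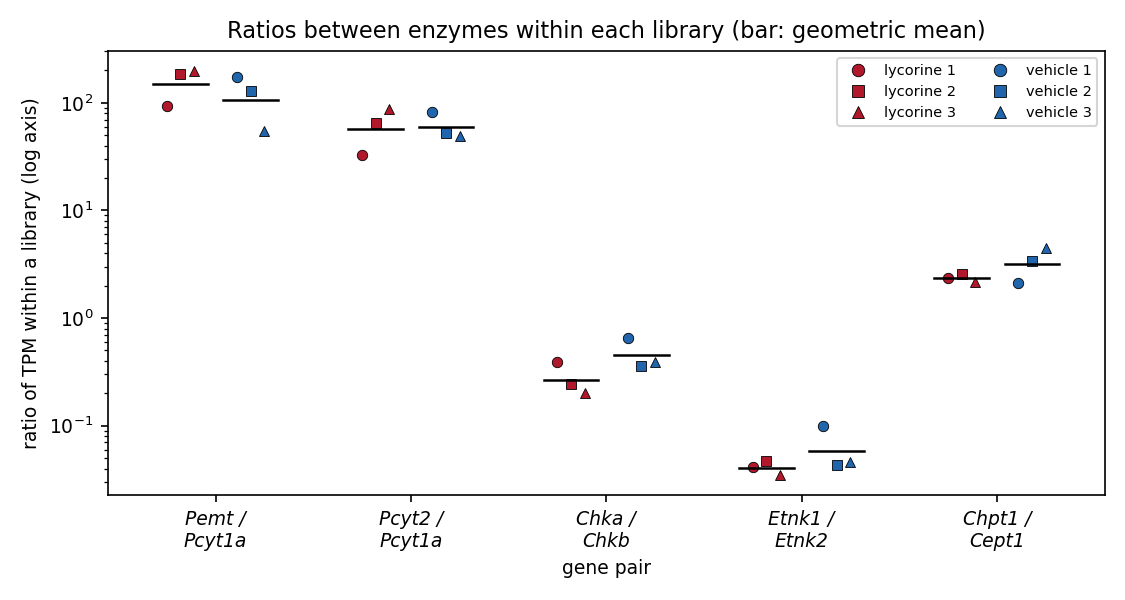
Ratio of TPM of 2 enzymes within each library (log axis), lycorine in red and left, vehicle in blue and right, with the geometric mean of each group as a bar. All 5 pairs overlap between groups, with Chka over Chkb at 0.20 to 0.39 in lycorine and 0.36 to 0.65 in vehicle.

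Genes around these routes were read from 9 lists with 75 genes, of which 70 were tested. In limma 0 of 70 passed over all rows, and 4 had an unadjusted p under 0.05, all of them higher in lycorine, as did 2.79% of tested rows in that direction. The log2 fold change was above 0 in 57 of 70, against 69.9% of tested rows, and above the median of all rows in 43. The groups did not overlap in 12 of 70, all higher in lycorine, where 9.6% of tested rows were. After median-of-ratios scaling 4 of 70 did not overlap, all higher in lycorine, where 3.31% of tested rows were, and 3 of the 12 were among them. The median of the 70 was 0.31, against 0.22 over all tested rows and 0.32 over rows averaging 5 TPM or more. The median of all rows thus depended on level, and the counts above it were not matched for level.

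Choline transport and oxidation had the highest list median, 0.51, with 9 of 9 genes above 0 and 7 above the median of all rows. Slc44a3, a choline transporter-like protein, was at 30.8, 29.7 and 17.7 TPM in lycorine and 18.2, 12.4 and 6.93 TPM in vehicle, with overlap between lycorine 3 and vehicle 1 that median-of-ratios scaling removed. Its log2 fold change in limma was 1.05 (SE 0.41, adjusted p = 0.832). Chdh, which oxidises choline to betaine aldehyde, was at 15.5, 11.5 and 13.3 TPM in lycorine and 11.6, 8.18 and 4.85 TPM in vehicle (limma log2 fold change 0.71, adjusted p = 0.832).

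The list around the methyl donor of PEMT had a median of 0.14. In it 5 of 7 genes were above 0, and 3 were above the median of all rows. Gnmt and Nnmt, with log2 fold changes of -0.13 and 0.22, use methyl groups for other products. The median and counts therefore do not describe supply alone. Bhmt2, a homocysteine methyltransferase, was at 95.9, 80.8 and 105.7 TPM in lycorine and 75.4, 49.3 and 40.3 TPM in vehicle, a log2 fold change of 0.80 (SE 0.32, limma adjusted p = 0.832). Its groups did not overlap, also after median-of-ratios scaling. Ahcy, which clears the S-adenosylhomocysteine that PEMT leaves, was at 29.7, 32.7 and 32.8 TPM in lycorine and 38.6, 31.5 and 42.6 TPM in vehicle (limma log2 fold change -0.23, adjusted p = 0.853). Mat2a, a methionine adenosyltransferase, had a log2 fold change of 0.24 (limma adjusted p = 0.867).

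In the CTP list 4 of 4 genes were above 0. Nme1, a nucleoside diphosphate kinase that makes CTP, was at 55.2, 50.3 and 45.1 TPM in lycorine and 31.2, 27.3 and 31.5 TPM in vehicle, without overlap on either scale (limma log2 fold change 0.72, SE 0.26, adjusted p = 0.832). Nme2, its paralog, and the CTP synthase Ctps2 had log2 fold changes of 0.48 and 0.51 and overlapping groups. Supply of phosphatidylserine and phosphatidylethanolamine had 5 of 5 genes above 0 and 5 above the median of all rows. Ptdss1, a phosphatidylserine synthase, was at 14.8, 10.9 and 11.0 TPM in lycorine and 10.5, 8.70 and 5.53 TPM in vehicle. Prelid1, which carries phosphatidic acid in mitochondria, was at 210.4, 215.2 and 211.2 TPM in lycorine and 197.1, 150.8 and 104.5 TPM in vehicle. Neither passed (limma adjusted p = 0.832 for each), and both overlapped after median-of-ratios scaling. Prelid3b of that list had a log2 fold change of 0.33.

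Of the genes for phosphatidic acid and diacylglycerol 9 of 10 were above 0 and 5 above the median of all rows, with log2 fold changes of 0.66 for Agpat1, 0.63 for Agpat3 and 0.60 for Lpin3 and overlapping groups in all 3. Phospholipid breakdown had 10 of 14 above 0. In it Pnpla7, a lysophospholipase of liver, was at 91.2, 72.9 and 92.0 TPM in lycorine and 71.8, 48.6 and 46.7 TPM in vehicle, apart on either scale (limma log2 fold change 0.63, SE 0.30, adjusted p = 0.832). Phospho1, a phosphatase of phosphocholine and phosphoethanolamine, was at 12.5, 6.96 and 7.81 TPM in lycorine and 5.39, 5.61 and 1.5 TPM in vehicle. Its log2 fold change in limma was 1.05 (SE 0.45, adjusted p = 0.832), and its groups overlapped after median-of-ratios scaling. Gde1 had a log2 fold change of 0.55. Among transfer and export genes 6 of 9 tested were above 0. Stard10, a lipid transfer protein that binds phosphatidylcholine and phosphatidylethanolamine, was at 1446, 1639 and 1746 TPM in lycorine and 1246, 1053 and 993.0 TPM in vehicle (limma log2 fold change 0.56, SE 0.25, adjusted p = 0.832). Its groups did not overlap as deposited and did after median-of-ratios scaling, as did those of Stard7, with 14.6 to 16.8 TPM in lycorine and 8.18 to 11.4 TPM in vehicle.

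Of the isoenzymes 4 of 7 were tested, with 3 above 0 and 0 above the median of all rows. Lpcat4, added after its values were seen, had the highest mean of the list, at 15.1, 7.5 and 3.25 TPM in lycorine and 30.95, 3.71 and 2.69 TPM in vehicle. Lpcat1 was at 0.33 to 0.90 TPM in lycorine and at 0.68, 0.41 and 6.73 TPM in vehicle, with vehicle 3 apart, and Selenoi and Lpcat2 had log2 fold changes of 0.12 and 0.058. Among regulators 6 of 8 were above 0, with log2 fold changes of 0.75 for Srebf2, a regulator of sterol synthesis, 0.55 for Nr1h4, the bile acid receptor FXR, and 0.39 for Nr1h3, the oxysterol receptor LXR alpha (limma adjusted p = 0.832 for each).

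**Figure D5:**
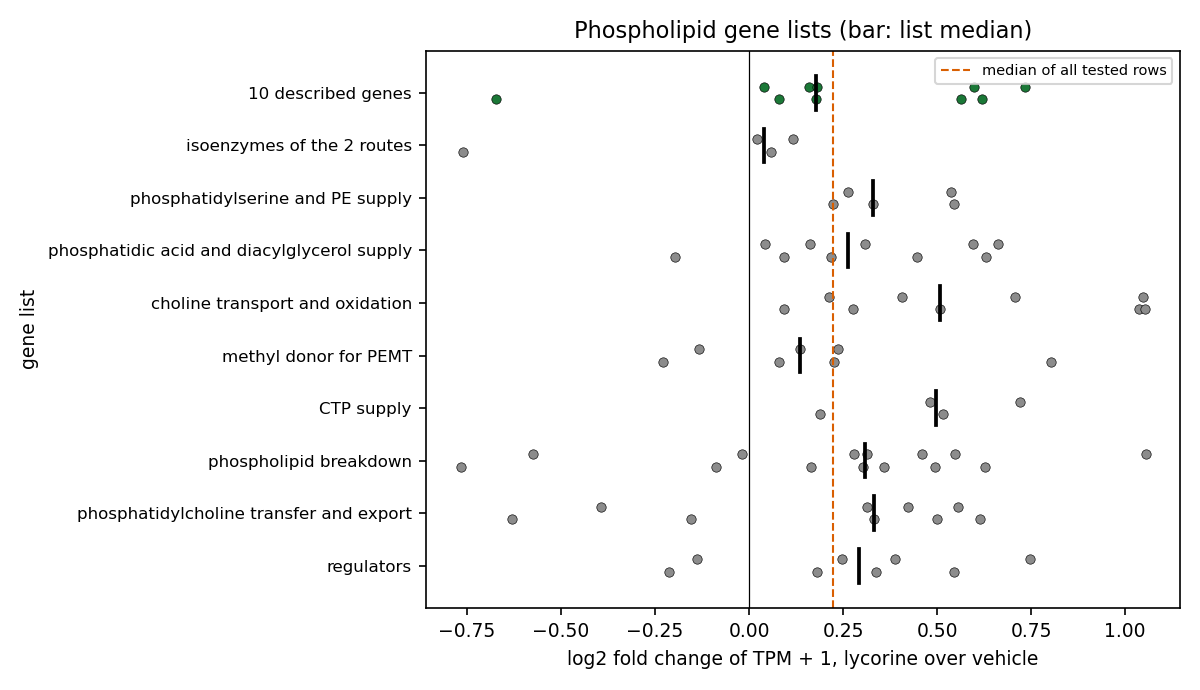
Log2 fold change of TPM + 1 (lycorine over vehicle) of the 10 described genes (green) and of the tested genes of the 9 surrounding lists (grey), with list medians as bars and the median of all tested rows, 0.22, as a dashed line. The list medians run from 0.039 for the isoenzymes to 0.51 for choline transport and oxidation, and 0 of the genes passed the limma test.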

How the data were processed

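Liver RNA of Mdr2 knockout mice was analysed in 3 lycorine and 3 vehicle libraries. The deposited table names its values FPKM, but each column sums to 1000000 within rounding, so the authors' values are in TPM, with 2 decimals. Lycorine columns are marked Ly, and vehicle columns, which carry only genotype and number, were assigned because no other label was left. The submitters' processing notes name GRCm38 and mm10, and the aligner and quantifier are unstated in the labels. TPM keeps no depth, so no counting interval is given and no count model was used. Symbols and coordinates came from GENCODE M21, and all listed genes matched.

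Rows averaging 1 TPM or more were transformed to log2(TPM + 1) and compared with limma 3.58.1 in R 4.3.3 (variance trend, two-sided, Benjamini-Hochberg over all tested rows, threshold 0.05). Ratios used TPM with no pseudocount and the exact permutation test (scipy 1.17.1). The procedure was run on simulated data with independent noise in each row and library. These data held no shift shared by a whole library, so the run does not cover the effect of scaling. The genes and lists were chosen with earlier results of these data known. Named were the 10 genes, the 3 genes with the smallest p in each surrounding list, Abcb4 and, for Pemt and Pcyt1a, the 3 protein-coding genes most correlated with them over the libraries. Some genes that this rule named are not reported here, and they remain in the counts and medians of their lists. Pcyt1b, Lpcat4, the genes that overlap a described gene and the shares of summed TPM were added after values were seen. Other settings tried were the filter, pseudocount, scaling, variance trend, array weights, a block on replicate number and leaving out libraries.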

Additional observations from a re-analysis of the deposited data

How the results depend on the processing

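Over 17 alternatives limma called 0 of the 10 genes and 0 of the surrounding lists. Rows called over the whole table numbered 0 in the report's setting, 1 with a pseudocount of 0.1 and with array quality weights, 5 with vehicle 3 and lycorine 3 left out, and 0 to 2 with each library left out in turn, where 2 came without vehicle 2. Pemt, Etnk2, Cept1 and Lpcat3 kept a log2 fold change above 0 and Chka one below 0 in all 17, with Pemt between 0.44 and 0.80 and limma adjusted p values of Pemt of 0.521 to 0.9997. The sign turned for 5 genes of small difference, and the cause was not tested. With median-of-ratios scaling Pcyt1a, Pcyt2, Chkb, Chpt1 and Etnk1 were at -0.072, -0.11, -0.24, -0.10 and -0.13. With protein-coding nuclear genes only they were at -0.048, -0.087, -0.22, -0.081 and -0.13. With quantile normalization Pcyt2, Chkb, Chpt1 and Etnk1 were at -0.16, -0.26, -0.087 and -0.016. Leaving out each library gave -0.060 to 0.47 for Pcyt1a, -0.058 to 0.47 for Pcyt2, -0.26 to 0.40 for Chkb and -0.012 to 0.17 for Etnk1. Leaving out vehicle 3 and lycorine 3 together gave -0.23 for Chkb and -0.19 for the ratio Pemt over Pcyt1a. The ratio Pcyt2 over Pcyt1a had a log2 difference of 0.020 with a pseudocount of 1, chosen after the data had been seen, and -0.37 to 0.34 with each library left out. Genes without overlap between groups numbered 3 as deposited and 1 with median-of-ratios scaling, also chosen after the data had been seen.

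The labels number libraries 1 to 3 in each group. Deviations from the group means of same-numbered libraries correlated across genes at 0.31, 0.049 and 0.29. Libraries of different numbers correlated at -0.34 to 0.21. Vehicle 1 and vehicle 3 correlated best with the lycorine library of the same number, and vehicle 2 with lycorine 1, at 0.21. The labels do not say that equal numbers are pairs, so the main fit did not pair them, and whether they are pairs is not settled. With the replicate block limma called 0 rows over the table, 1033 rows had an unadjusted p under 0.05, and Pemt had an adjusted p of 0.595. Sequencing depth is unknown, and 2-decimal TPM limits the precision of genes near 1 TPM.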

Other observations

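Over the 6 libraries, of 10990 other protein-coding genes, Klhdc7a, F10 and Acot8 had the highest Pearson correlation of log2(TPM + 1) with Pemt, at 0.995, 0.993 and 0.993. The 6 points share their library makeup, and no test was made. F10, the gene of coagulation factor X, was at 301.6, 320.7 and 315.6 TPM in lycorine and 251.4, 244.9 and 226.7 TPM in vehicle. Acot8, a peroxisomal acyl-CoA thioesterase, was at 12.8, 13.2 and 14.6 TPM in lycorine and 8.50, 7.20 and 7.26 TPM in vehicle. Usp16, Ubqln2 and Plcxd3 were most like Pcyt1a, at 0.988, 0.972 and 0.967. Usp16, a deubiquitinase, was at 22.4, 14.3 and 13.5 TPM in lycorine and 11.7, 13.0 and 25.8 TPM in vehicle, high in lycorine 1 and vehicle 3 as Pcyt1a was.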
